A study of Drosophila melanogaster
Mus musculus with 21 samples.

Results

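Nuclear RNA of mouse embryonic stem cells was compared between 4 h and 8 h after the start of auxin treatment, which degrades RING1B, the catalytic core of Polycomb repressive complex 1 (PRC1). An entry is a transcript in the authors' deposited tables, and 13499 of 20633 entries, from 12541 gene symbols, had at least 50 normalised reads in untreated cells and were compared. For each, the log2 fold change at 8 h less that at 4 h was taken and centred on its median over these entries. A positive value therefore marks a transcript that stood higher at 8 h than at 4 h relative to the typical transcript.

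The PRC1deg cells were E14 embryonic stem cells that express the plant F-box protein Tir1 from Rosa26, lack Ring1A (Ring1A-/-) and carry AID-Ring1B, RING1B fused to the degron that Tir1 recognises in the presence of auxin. These alleles were shared by all groups used here, so the untreated cells also lacked RING1A. Auxin (indole-3-acetic acid, IAA) was at 500 µM, and each of the untreated, 2 h, 4 h, 8 h and 24 h groups held 3 libraries of the 21 in the series. Drosophila cells were mixed in for calibration, and cells grew in serum and leukaemia inhibitory factor (LIF).

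PRC1 is a ubiquitin ligase that marks histone H2A at the promoters of developmental genes, where it acts with PRC2, the complex that methylates histone H3. In embryonic stem cells it keeps many genes for transcription factors and signalling proteins of later lineages at low expression. RING1A and RING1B are its alternative catalytic subunits, and nuclear RNA is read because it lies closer to current transcription than total RNA.

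The 6 libraries of the 4 h and 8 h groups enter only through the authors' fold changes against the same untreated libraries. Values per library, their depth and standard errors were not analysed here, so no test of 8 h against 4 h was made and all differences between these times are descriptions. An error can be worked back from the authors' deposited table at each time: the fold change divided by the normal statistic that its adjusted p allows had a median of 0.28 log2 at 4 h (2019 entries with an adjusted p under 0.05) and 0.27 at 8 h (3497 entries). If the groups vary alike, a difference between both times has about that error too, because the untreated libraries cancel. The largest p that each adjusted p allows was used, so the implied error is an upper limit where fold changes were not shrunken. It is too small where they were shrunken, and part of it is common to all entries of a library. Differences under 1.5-fold of a single gene are therefore not distinguished from replicate error here. Those past 1.5-fold were not tested against it either, and most named genes were picked for large differences. The untreated signal summed to 30450536 normalised reads over all entries, with transcripts of the same gene counted more than once.

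Pluripotency markers were abundant, with a summed level of 12683 normalised reads per kb over the 7 markers listed in the tables, against 57.2 for 8 primitive endoderm markers, 18.9 for 8 trophoblast markers and 123 for 7 fibroblast markers. Cdx2, Lum and Dcn were at 0 in untreated cells. The label of embryonic stem cells was thus matched by the markers. RNA of the degraded protein's own gene, Rnf2, is no check of degradation, since auxin acts on the protein. Fewer cells of a type and less RNA per cell cannot be told apart in such bulk samples.

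Most transcripts moved little between 4 h and 8 h. The median log2 fold change against untreated cells in the authors' deposited tables was 0.15, 0.40, 0.50 and 0.24 at 2, 4, 8 and 24 h, and the median difference between 8 h and 4 h was 0.09. After centring, the SD over entries was 0.23, which is below the median implied error, and the quartiles lay at -0.14 and 0.18. Of all entries, 98.3% lay within 1.5-fold, or 0.58 on the log2 scale, and 84.6% within a smaller bound of 0.32. The entries past 1.5-fold numbered 147 higher at 8 h (1.09%) and 89 lower (0.659%). The SD describes all entries together and cannot show whether these entries exceed replicate error, which was not tested. Past the bound of 0.32, 1390 were higher (10.3%) and 684 lower (5.07%). The balance of directions depended on the centring, with 87 higher and 129 lower past 1.5-fold when centred within bins of untreated reads. The centred differences ran from -1.36 to 1.24. At the read minimum, Pdzrn4 (0.21) and Oprd1 (0.18) lay just outside it, and Cnih2 (0.27) and Cdsn (0.34) just inside.

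**Figure D1:**
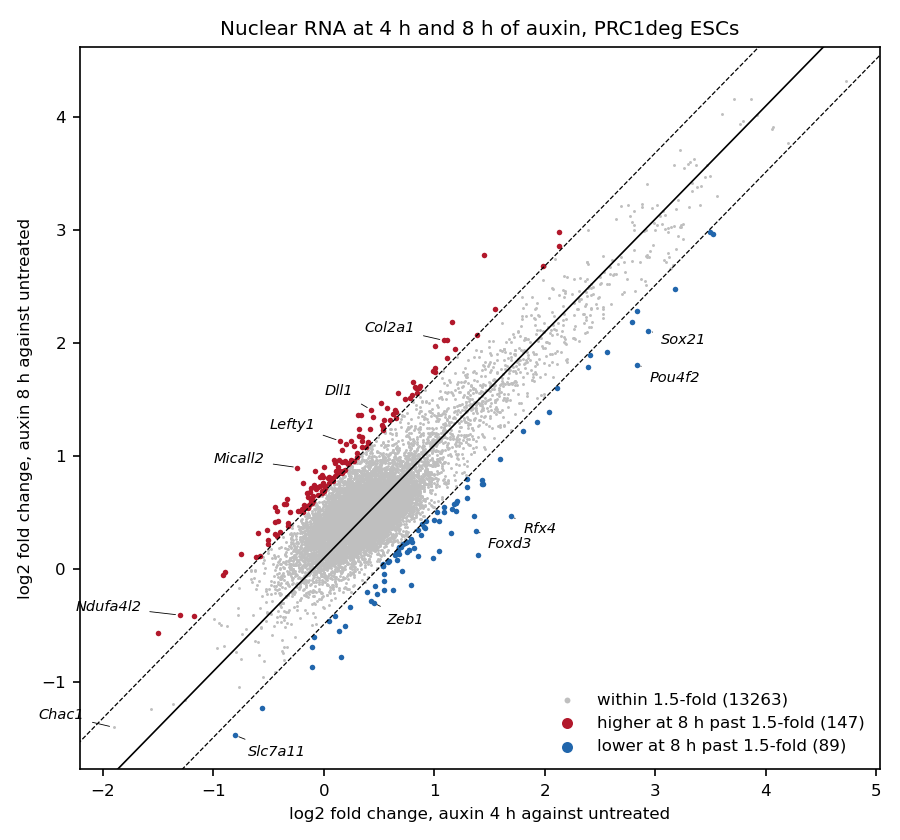
Log2 fold change against untreated cells at 4 h (x axis) and 8 h (y axis) for each of the 13499 entries; the solid line is the median difference and the dashed lines mark 1.5-fold on either side. The 147 red entries stood higher at 8 h and the 89 blue entries lower, among them Rfx4 and Foxd3 with large fold changes at 4 h.

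Calls against untreated cells are a different measure, since each time has the authors' test. With an adjusted p under 0.05 and a fold change over 1.5, the authors' deposited table called 1995 entries higher at 4 h (14.8%) and 19 lower (0.141%). The authors' deposited table at 8 h called 3450 higher (25.6%) and 14 lower (0.104%). The larger number at 8 h went with the higher median of all transcripts at that time: with fold changes centred on their own median, 924 entries at 4 h and 964 at 8 h were called higher.

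The 3 symbols furthest down between 4 h and 8 h were the transcription factor genes Rfx4, Foxd3 and Pou4f2. Rfx4, a winged-helix factor of the developing brain, was the lowest of 12541 symbols at -1.32, or 2.5 times lower at 8 h after centring. Its log2 fold change in the authors' deposited tables was 1.53, 1.69, 0.46 and -0.73 at 2, 4, 8 and 24 h. Its adjusted p was 8.06e-06 at 4 h and 0.17 at 8 h by the authors' deposited tables. A second Rfx4 transcript, which shares reads with it, gave the lowest value of all entries. Foxd3, a forkhead factor of epiblast and neural crest, had 1.28, 1.37, 0.33 and 0.22 at the same 4 times in the authors' deposited tables (adjusted p 0.000394 at 4 h and 0.307 at 8 h) and a centred difference of -1.13. Rfx4 and Foxd3 thus passed the test against untreated cells at 4 h and not at 8 h. Pou4f2, a POU-homeodomain factor of retinal ganglion cells, and Sox21, a Sox factor of neural progenitors, remained called at both times. Pou4f2 had 2.83 at 4 h and 1.8 at 8 h by the authors' deposited tables, and Sox21 had 2.94 and 2.10. Both had few untreated reads, 54 for Pou4f2 and 78 for Sox21.

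Other genes at this end had diverse roles. Hlf, a PAR-type leucine zipper factor, differed by -1.02, Msc, a bHLH repressor, by -0.99, and Kcnh8, a voltage-gated potassium channel, by -0.93. Zeb1, a repressor of epithelial genes, had 6029 untreated reads, more than the others of the 15 lowest symbols, and a difference of -0.84. In the authors' deposited tables Zeb1 had 0.36, 0.45, -0.30 and -1.33 at 2, 4, 8 and 24 h, so it lay above untreated cells at the early times and below them later. Neither its 4 h value (adjusted p 0.188) nor its 8 h value (adjusted p 0.307) passed the authors' deposited table's test. The uncharacterised 6330410L21Rik had 0.15 at 4 h and -0.78 at 8 h by the authors' deposited tables and reached -2.5 at 24 h.

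At the upper end, genes of diverse roles stood higher at 8 h than at 4 h. Micall2, a MICAL-like protein of cell junctions, was the highest symbol at 1.04, with -0.24 at 4 h (adjusted p 0.497) and 0.90 at 8 h (adjusted p 0.0141) by the authors' deposited tables. Fmnl1, a formin, differed by 0.96, Epha8, an ephrin receptor, by 0.93, and Pdlim4, an actin-associated PDZ-LIM protein, by 0.92. Lefty1, a secreted antagonist of Nodal, had 0.06, 0.15, 1.13 and 1.00 at 2, 4, 8 and 24 h in the authors' deposited tables, and passed the test at 8 h (adjusted p 0.000499) but not at 4 h (adjusted p 0.665). Dll1, a ligand of Notch, had 0.15, 0.43, 1.41 and 0.80 in the authors' deposited tables, with an adjusted p of 0.189 at 4 h and 5.72e-06 at 8 h. Lefty1 and Dll1 were each 1.85 times higher at 8 h than at 4 h after centring. Col2a1, the collagen of cartilage, was already called at 4 h, with 1.09 there and 2.02 at 8 h in the authors' deposited tables.

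The 2 h and 24 h libraries did not enter the choice of these transcripts. In the labels' descriptions the sample numbers of the 24 h libraries form a series apart from that of the untreated to 8 h libraries, so the time and any difference in handling cannot be told apart there. The 89 entries lower at 8 h past 1.5-fold had median log2 fold changes of 0.49, 0.85, 0.22 and 0.04 at 2, 4, 8 and 24 h in the authors' deposited tables. At 2 h they lay above the median of all entries (0.15) and at 24 h below it (0.24). The 147 entries higher at 8 h had medians of 0.05, 0.12, 0.87 and 0.62 in the authors' deposited tables, below all entries at 2 h and above them at 24 h. Of the 89, the authors' deposited table called 51 higher at 4 h and 17 at 8 h. Of the 147 the authors' deposited table called 24 and 100 at these times, and this order is set by the values that chose the entries. Both sets had fewer reads than the rest, with medians of 169 and 131 untreated reads against 878 over all entries.

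**Figure D2:**
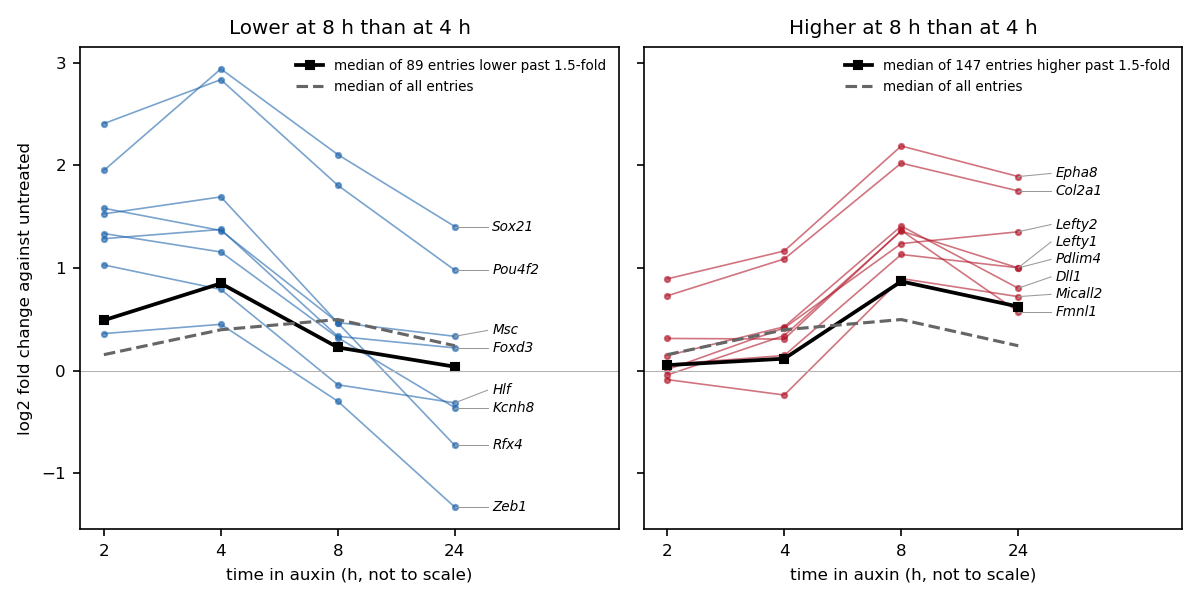
Log2 fold change against untreated cells (y axis) at 2, 4, 8 and 24 h of auxin (x axis, not to scale) for 8 of the named genes lower at 8 h than at 4 h (left, blue) and 8 of those higher (right, red); black squares are medians of all entries past 1.5-fold and the dashed line that of all 13499 entries. The left median drops from 0.85 at 4 h to 0.22 at 8 h, and the right one climbs from 0.12 to 0.87 and stands at 0.62 at 24 h.

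Entries grouped by their call at 2 h or 24 h were chosen by libraries that the difference between 8 h and 4 h did not use, apart from the shared untreated ones. The 562 entries that the authors' deposited table called higher at 2 h (4.16% of entries) had a median centred difference of -0.09, with 114 lower past 0.32 at 8 h (20.3%, against 5.07% of all entries) and 43 higher (7.65%, against 10.3%). Their median fold change was nevertheless as high at 8 h as at 4 h, with 1.72 at 4 h and 1.77 at 8 h on the log2 scale in the authors' deposited tables. The 42 entries called lower at 2 h in the authors' deposited table (0.311%) had a median difference of 0.29, with 18 higher past 0.32 and 1 lower. Their medians were -0.92, -0.46, -0.06 and -0.48 at 2, 4, 8 and 24 h in the authors' deposited tables, closest to untreated cells at 8 h. The 1226 entries called higher at 24 h in the authors' deposited table (9.08%) had a median difference of 0.08 and 265 past 0.32 higher at 8 h (21.6%). The 89 called lower at 24 h in the authors' deposited table (0.659%) had a median of -0.14, and 26 of them were lower past 0.32 at 8 h (29.2%).

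Gene lists were summarised with 1 entry per symbol, the one with the most untreated reads. Over all 12541 symbols, 1252 were higher at 8 h past 0.32 (9.98%) and 638 lower (5.09%), and 129 (1.03%) and 80 (0.638%) past 1.5-fold. The authors' deposited table called 14.6% of symbols higher at 4 h and 25.4% at 8 h. The median of all symbols was at 0.00.

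Naive pluripotency genes had a median of -0.25 over the 31 of 35 listed genes that passed the read minimum. None was higher past 0.32, 11 were lower past 0.32 and 4 past 1.5-fold, and 25 lay below the median of all entries. Prdm14, a repressor that guards naive pluripotency, had 0.54 at 4 h and -0.11 at 8 h by the authors' deposited tables, a centred difference of -0.75. Nr0b1 (Dax1), an orphan nuclear receptor, had 0.91 and 0.37 in the authors' deposited tables, and passed the test at 4 h (adjusted p 0.00227) but not at 8 h (adjusted p 0.185). Gbx2, a homeobox gene downstream of LIF, was called at both times, with 2.11 and 1.60 in the authors' deposited tables. Nr5a2, a nuclear receptor that binds the Pou5f1 promoter, differed by -0.60 at 8237 untreated reads, and Tet2, an enzyme of DNA demethylation, by -0.50.

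The core factors differed by less than 1.5-fold, so no direction of a single one is shown. Sox2 had 0.25 at 4 h and -0.20 at 8 h by the authors' deposited tables, a centred difference of -0.54, and Nanog had 0.41 and 0.11, a centred difference of -0.39. Pou5f1 (Oct4) had 0.15 and 0.44 in the authors' deposited tables, a centred difference of 0.20. None of Sox2, Nanog and Pou5f1 passed the test of the authors' deposited table at either time, with adjusted p between 0.171 for Pou5f1 and 0.704 for Nanog, both at 8 h. The list's median read level was 7420, and all entries between 5000 and 10000 reads had a median difference of -0.08, which lies part of the way to the list's -0.25. With centring within bins of untreated reads the list's median was -0.17. Among targets of LIF and STAT3, 16 measured, the median was -0.16, with 4 lower past 0.32 and 2 higher. Socs2, a feedback inhibitor of cytokine signalling, differed by -0.60 there.

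Among genes of the formative and primed epiblast, 11 lay below the median of all entries and 5 above it. Of 16 measured, 7 were lower past 0.32, 3 of them past 1.5-fold, and 1 was higher, with a median of -0.23. Besides Foxd3, these were led by Zic2, a zinc finger factor, with 1.60 at 4 h and 0.97 at 8 h by the authors' deposited tables (difference -0.72). Otx2, a homeobox factor of epiblast and forebrain, had 0.70 and 0.19 in the authors' deposited tables, passing the test at 4 h only (adjusted p 0.0397 and 0.505). Zic5, a paralog of Zic2, differed by -0.56. Etv4, an Ets factor downstream of FGF signalling, had the opposite sign at 0.34, and Dnmt3a, a de novo DNA methyltransferase, stood at 0.29.

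Developmental transcription factors, the classical targets of Polycomb, had high medians against untreated cells at both times. For factors of the Fox, Gata, Pax, Sox, Tbx and Zic families, 23 of 61 listed genes had enough reads, and their medians at 4 and 8 h were 1.38 and 1.49 in the authors' deposited tables, with 17 and 16 called higher. Of all symbols, 14.6% and 25.4% were called higher at these times. Relative to the typical transcript, the median centred difference of these 23 genes was -0.12, with 7 lower past 0.32 and 3 higher. For other homeobox genes, 26 of 108 had enough reads, the median was -0.12 and 5 lay past 0.32 in each direction. Only 3 of 39 Hox genes passed the minimum. Since untreated reads set the minimum, the genes of these families that are most silent in untreated cells are not represented.

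Single factors within these families had differences of either sign. Meis2, a TALE homeobox factor, had 3.53 at 4 h and 2.96 at 8 h by the authors' deposited tables, a difference of -0.66. Sall3, a zinc finger factor, differed by -0.74, and Tfap2a, an AP-2 factor of ectoderm and neural crest, by -0.65. Gata6, the endoderm factor, was higher at each later time. It had 2.03, 2.93, 3.41 and 4.16 at 2, 4, 8 and 24 h in the authors' deposited tables, and a centred difference of 0.39. Tbx4, a T-box factor of the hindlimb, differed by 0.58, and Esrrg, an orphan nuclear receptor, by 0.63. Cdx1, a caudal homeobox gene that responds to Wnt, and Hes6, a bHLH factor, each differed by 0.56. Of Gata6, Tbx4, Esrrg, Cdx1 and Hes6, only Esrrg lay past 1.5-fold, so for the others no direction is shown. Eomes, a T-box factor of mesoderm and trophoblast, was nearly level, with 3.09 and 3.01 in the authors' deposited tables.

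**Figure D3:**
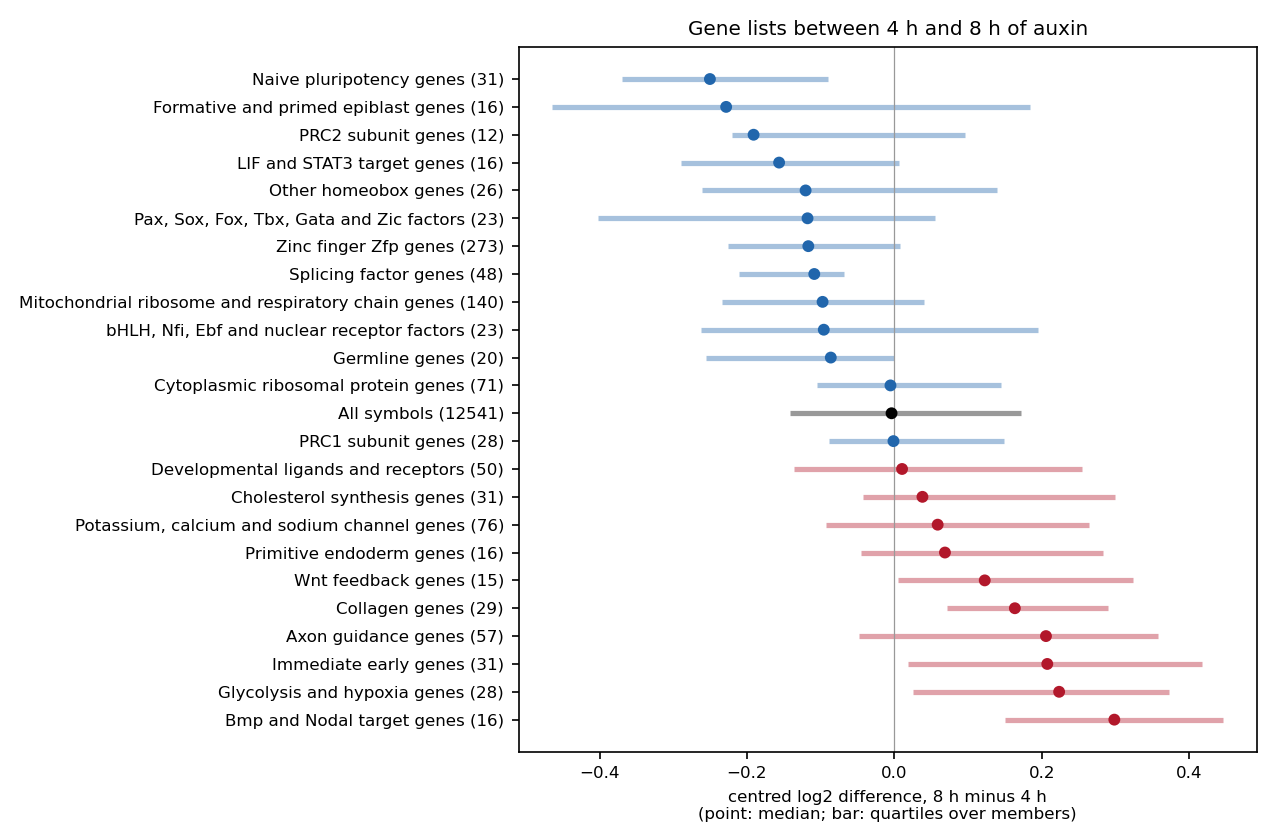
Median centred log2 difference between 8 h and 4 h (x axis, points) with quartiles over members (bars) for 23 gene lists and all symbols, the number of members with 50 or more reads in brackets. In this plot naive pluripotency genes lie at -0.25 and Bmp and Nodal targets at 0.30; the bars show the spread between genes, not replicate error.

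Targets of Nodal and Bmp signalling had the highest median of the lists, also under each alternative run on the list medians. Of 16 with enough reads, 7 were higher past 0.32 and 3 past 1.5-fold, none was lower past 0.32, and the median was 0.30. The authors' deposited table called 1 of them higher at 4 h and 8 at 8 h, against 14.6% and 25.4% of all symbols. Besides Lefty1, Lefty2, its paralog and likewise a Nodal antagonist, had 0.01, 0.41, 1.24 and 1.35 at 2, 4, 8 and 24 h in the authors' deposited tables (adjusted p 5.45e-05 at 8 h). Reads of Lefty1 and Lefty2 may be partly shared, since they are close paralogs. Id1, an inhibitor of bHLH factors induced by Bmp, had 0.09 at 4 h and 0.74 at 8 h by the authors' deposited tables. It passed the test of the authors' deposited table at 8 h (adjusted p 0.0326) and not at 4 h (adjusted p 0.799).

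Other signalling genes differed in size. Among 15 feedback genes of Wnt signalling, 4 were higher past 0.32 and none lower, with a median of 0.12. Axin2, a scaffold of the beta-catenin destruction complex, had 0.54 at 4 h and 0.99 at 8 h by the authors' deposited tables. Among 50 developmental ligands and receptors, 9 were higher and 1 lower past 0.32, yet the median was 0.01. Dll1 and Bmp7, a Bmp ligand with a difference of 0.64, were the 2 past 1.5-fold. Among 17 feedback genes of MAP kinase signalling, 2 were higher and 1 lower, and the median was -0.04.

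Immediate early genes, which respond within minutes to growth factors or stress, had a median of 0.21 over 31 members. Past 0.32 were 10 higher and 1 lower, and 4 were higher past 1.5-fold. Fos, a subunit of AP-1, had -0.14, -0.36, 0.57 and 0.24 at 2, 4, 8 and 24 h in the authors' deposited tables, and Fosb, another, had -0.19 at 4 h and 0.75 at 8 h. Fos and Fosb failed the test against untreated cells in the authors' deposited table at both times, with adjusted p of 0.0783 for Fos and 0.0627 for Fosb at 8 h. Atf3, a stress-responsive CREB family factor, and Dusp1, a MAP kinase phosphatase, passed it at 8 h (adjusted p 0.024 and 0.00596 in the authors' deposited table). Their centred differences were 0.73 and 0.65.

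Genes of glycolysis and the hypoxia response were near untreated levels at 4 h, with a median of 0.10 in the authors' deposited table, and 0.40 at 8 h. Of 28 measured, 10 were higher past 0.32 and 2 past 1.5-fold, none was lower past 0.32, and the median centred difference was 0.22. Slc2a1 (Glut1), the main glucose transporter, had -0.18, -0.14, 0.46 and -0.13 at 2, 4, 8 and 24 h in the authors' deposited tables at 12501 untreated reads, and did not pass the test at 8 h (adjusted p 0.131). Egln3, a prolyl hydroxylase induced by hypoxia, had 0.08 at 4 h, 0.78 at 8 h and 0.03 at 24 h by the authors' deposited tables. Ndufa4l2, a mitochondrial protein induced by hypoxia, lay below untreated cells at every time and least so at 8 h, with -0.62, -1.30, -0.41 and -1.19 in the authors' deposited tables. Of the 28 genes the authors' deposited table called none higher at 4 h and 3 at 8 h, against 14.6% and 25.4% of all symbols. The median read level of this list was 2683, and entries between 2000 and 5000 reads had a median difference of -0.04.

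Axon guidance genes had a median of 0.21 over 57 members, with 18 higher and 5 lower past 0.32, and 5 and 2 past 1.5-fold. Called higher in the authors' deposited tables were 23 at 4 h and 38 at 8 h, against 14.6% and 25.4% of all symbols. Epha8, at 51 untreated reads, had 1.16 and 2.19 at these times in the authors' deposited tables. Plxnd1, a semaphorin receptor, had 0.54 and 1.32 in the authors' deposited tables. Sema4c, a semaphorin, differed by 0.69. Ntn1 (netrin 1), a secreted guidance cue, went the other way and was called at both times, with 1.96, 2.04, 1.39 and 0.76 at 2, 4, 8 and 24 h in the authors' deposited tables. This list's median depended on its weakly changed members: among the 38 with an adjusted p under 0.05 at 4 h or 8 h it was 0.06.

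Genes of the cell surface and matrix included single genes with large differences. Of 29 collagen genes, 6 were higher and 1 lower past 0.32, with a median of 0.16. With centring within bins of untreated reads that median was 0.08. Besides Col2a1, Col7a1, the collagen of anchoring fibrils, differed by 0.65. Col4a1, a basement membrane collagen made by primitive endoderm, had 0.86, 1.19, 1.58 and 1.84 at 2, 4, 8 and 24 h in the authors' deposited tables, higher at each later time. Among 16 measured genes of primitive endoderm the median was 0.07, with 2 higher past 0.32 and none lower. The markers Sox17, Foxa2 and Sox7 were under the read minimum and stood lower at 8 h, at -0.77, -0.71 and -0.56. Of markers above it besides Gata6, Gata4 differed by 0.10, Pdgfra by 0.03, Lama1 by -0.08 and Dab2 by -0.09. The fibroblast markers with enough reads, Thy1 and Col1a1, stood at 0.32 and 0.46, with Lum and Dcn at 0 in untreated cells. Over the 6 measured genes of the fibroblast list the median was 0.12, with 4 above the median of all entries and 2 below. Vim, the lowest of these 6, stood at -0.23. The part of fibroblast genes in the collagen values was not tested. Among 76 potassium, calcium and sodium channel genes, 13 were higher and 2 lower past 0.32, with a median of 0.06. Among 44 cadherins and protocadherins the median was -0.05 with 6 past 0.32 in each direction, and Celsr2, a seven-pass cadherin of planar polarity, differed by 0.67. Chrna4, a nicotinic receptor subunit, differed by 0.76.

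Genes of Polycomb complexes themselves moved within 1.5-fold. Rnf2, which encodes RING1B, had 0.38, 0.94, 0.74 and 0.34 at 2, 4, 8 and 24 h in the authors' deposited tables and a centred difference of -0.29. Ring1, which encodes RING1A and is disrupted in these cells, still had 202 untreated reads and a difference of 0.21. The deleted part of Ring1 is not given in the sources used here, so this does not check the genotype. Over 28 PRC1 subunit genes the median was 0.00, with 2 higher and 1 lower past 0.32. Phc1, a polyhomeotic subunit, differed by -0.33 and L3mbtl2, a subunit of a non-canonical PRC1, by 0.44. Over 12 PRC2 subunit genes the median was -0.19, with 2 higher and 1 lower past 0.32. Ezh2, the methyltransferase, differed by -0.20, Suz12, a core scaffold, by -0.19 and Eed, the reader of the methyl mark, by -0.33, while Phf19, an accessory subunit, differed by 0.50 and was called at both times. With centring within bins of untreated reads the PRC2 median was -0.09.

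Stress and metabolic lists showed smaller shifts. Among 34 amino acid response genes the median was 0.06, with 4 higher and 1 lower past 0.32. Chac1, a glutathione-degrading enzyme of the ATF4 response, lay far below untreated cells at all times, with -2.59, -1.90, -1.40 and -2.41 at 2, 4, 8 and 24 h in the authors' deposited tables, closest to them at 8 h. Trib3, a pseudokinase of the same response, had -0.99 at 4 h (adjusted p 0.007) and -0.44 at 8 h (adjusted p 0.168) by the authors' deposited tables. Slc7a11, the cystine transporter, moved in the other direction, with -0.60, -0.80, -1.47 and -2.33 at the 4 times in the authors' deposited tables. Among 31 cholesterol synthesis genes 6 were higher past 0.32 and none lower, with a median of 0.04. Hyou1, a chaperone of the endoplasmic reticulum, had 0.35 at 4 h and 1.00 at 8 h by the authors' deposited tables. Over all 30 such chaperone genes the median was 0.06, with 4 higher and none lower past 0.32.

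The lists of basic cell function described in this paragraph had medians between -0.12 and 0.00. Other such lists had medians of either sign, with proteasome genes at -0.05, Myc and ribosome biogenesis genes at 0.02 and proliferation genes at 0.07. Cytoplasmic ribosomal protein genes had a median of -0.01 over 71 members with 3 higher and 2 lower past 0.32, and no aminoacyl-tRNA synthetase gene of 20 lay past 0.32. Genes of the mitochondrial ribosome and respiratory chain had a median of -0.10 over 140, with 5 higher and 20 lower. Zinc finger genes named Zfp had -0.12 over 273, with 7 higher and 27 lower. Splicing factor genes had -0.11 over 48 with 1 higher and 2 lower, and -0.03 with centring within bins of untreated reads. Actb (beta-actin) differed by 0.19 and Gapdh by 0.24.

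The difference between the times also varied with read level and length. Entries with 200 to 500 untreated reads had a median of 0.08, and those with over 10000 reads -0.11. By deposited length, entries of 5 to 10 kb had a median of 0.08 and those over 500 kb -0.09. Among the shortest entries, under 5 kb, 14.5% were higher and 9.45% lower past 0.32, and among those over 500 kb 4.4% and 11%. Read level and length went together in part, with a median of 306 reads under 5 kb and 2227 at 100 to 200 kb, and their part in the results of the lists was not tested beyond the values given with centring within bins.

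**Figure D4:**
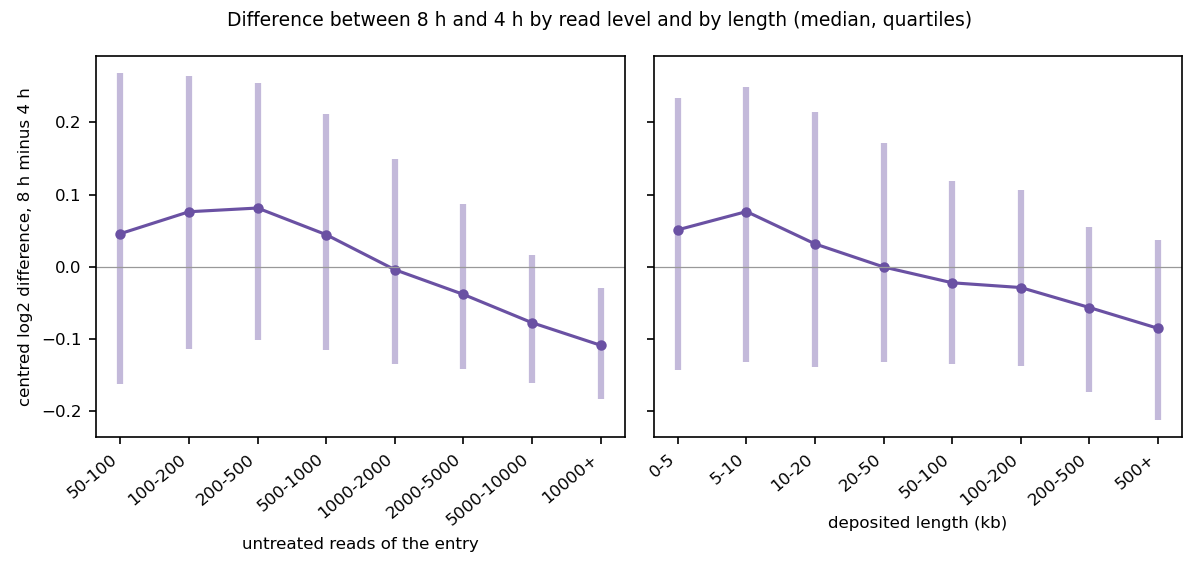
Median centred log2 difference between 8 h and 4 h (y axis, points) with quartiles over entries (bars) in bins of untreated reads (left) and of deposited length in kb (right). The medians go from 0.08 at 200 to 500 reads to -0.11 above 10000 reads, and from 0.08 at 5 to 10 kb to -0.09 above 500 kb.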

How the data were processed

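Per the labels' protocols, nuclear RNA was freed of ribosomal RNA and strand-specific libraries were sequenced from both ends at 80 bp. The submitters' processing notes name the mm10 and dm6 builds and the tools STAR, Bowtie2, bedtools, SAMtools and DESeq2, whose versions the sources used here do not give. The authors deposited 1 table per time against untreated cells, and 4 were used. They hold log2 fold changes deposited by the authors, adjusted p-values deposited by the authors, a length, and a mean untreated signal deposited by the authors as RPKM. The authors name the fold changes spike-normalised, so medians and calls against untreated cells rest on that scaling. Centring the difference between 8 h and 4 h removes any shift common to all entries. That signal times length divided by 1000 gave untreated reads. No value per library is in these tables, so how replicates spread enters only through the authors' adjusted p-values, and nothing in the labels says whether replicates were separate cultures.

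The 4 h and 8 h tables were joined by transcript, and the difference was centred on its median. Of the other entries, 7134 were under 50 reads or had no value, 676 of all lacking a fold change. The members and the 56 gene lists, of which 52 had 5 or more measured members, were chosen with earlier results of these data known. Named genes were the 15 highest and 15 lowest symbols, up to 4 per list by size of difference, and 9 fixed genes. Some of these are not reported. The counting and the implied error were run on simulated data with changes far larger than the simulated error. That checks the code, not how counts behave at the error of these data, and list medians were not simulated. Python 3.11.15, pandas 2.3.3, numpy 2.4.6, scipy 1.17.1 and matplotlib 3.10.9 were used. Alternatives were other centring, read minimums, folds and p thresholds.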

Additional observations from a re-analysis of the deposited data

How the results depend on the processing

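No paired analysis was possible because the tables hold no values per library, so leaving out replicates and the replicate block were not run. The counts past 1.5-fold (147 higher and 89 lower at 8 h) were 333 and 50 without centring. With centring within bins of untreated reads 87 were higher and 129 lower, which turns the balance. With a minimum of 20 reads 222 were higher, and with 200 reads 44 were higher and 38 lower. With an adjusted p under 0.05 at 4 h or 8 h, 54 were lower. The counts were 1390 and 684 past 0.32, and 2 and 6 past 2-fold. Centring within bins of length, chosen after seeing the data, and 1 entry per symbol kept both counts within 1.5 times. Calls against untreated cells at an adjusted p under 0.01 in the authors' deposited tables were 1054 higher and 8 lower at 4 h, and 1501 higher and 5 lower at 8 h. With centred fold changes 924 were called higher at 4 h and 964 at 8 h. No list median at or beyond 0.1 changed sign under any alternative run. With only entries at an adjusted p under 0.05 at 4 h or 8 h, however, 11 list medians moved by 0.1 or more and 31 did not. Lists with fewer than 5 such members were not run there. Entries with few reads carry most of the large differences, and the centring sets the balance of directions.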

Other observations

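Transcripts of the same gene that differ in length could be set side by side. Among 61 symbols whose longest and shortest entries differed by 200 kb or more, the short entry's centred difference less that of the long one had a median of 0.02 and ran from -0.48 to 1.17. In 258 symbols with a gap under 10 kb it ran from -0.13 to 0.20. The largest gap in value, chosen after its values were seen, was in Cacna1c, a subunit of the L-type calcium channel. Its long entry of 609 kb had 1.44, 3.77, 3.93 and 2.83 at 2, 4, 8 and 24 h in the authors' deposited tables, and its short entry of 171 kb had -0.09, 1.45, 2.78 and 1.47. The long entry was thus near its level of 8 h already at 4 h, and the short one was not. Trpm3, a cation channel, had the lowest value, with 0.50 at 4 h and 0.29 at 8 h for its long entry of 851 kb and 0.19 and -0.51 for its short entry of 234 kb in the authors' deposited tables. Entries of the same gene overlap and share reads, and the cause was not tested.

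Imprinted genes had a median of -0.03 over 27 members, with 5 higher and 2 lower past 0.32 at 8 h. Igf2, an imprinted growth factor, had 0.73, 2.00, 2.68 and 3.76 at 2, 4, 8 and 24 h in the authors' deposited tables, higher at each later time. Ccnd2, a D-type cyclin, had 1.05, 2.39, 3.00 and 1.74 in the authors' deposited tables, highest at 8 h. Circadian clock genes had a median of 0.03 over 21, with Hlf at -1.02 and Bhlhe40, a bHLH repressor of the clock, at 0.71. Of 20 germline genes 3 were lower past 0.32 and none higher, and Dazl, a germ-cell RNA-binding protein, had 1.10 at 4 h and 0.82 at 8 h by the authors' deposited tables.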
